A study of Rattus norvegicus with 12 samples.

Results

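The endothelin, nitric oxide and prostacyclin genes were read in whole lungs of rats with pulmonary hypertension owing to left heart disease, as the pathways that drugs for pulmonary hypertension act on, together with 2 genes of the angiotensin system. The members were 10 genes given by name: Edn1, Ednra, Ednrb, Ece1, Nos3, Pde5a, Ptgis, Ptgir, Ace and Agtr1a. Of these, 7 had at least 1 probe set with their symbol in the platform annotation used here, for 9 probe sets of 31042 on the array, and all 9 passed the filter on low values that kept 16536 probe sets. The endothelin receptors Ednra and Ednrb and the prostacyclin receptor Ptgir were not analysed here, since no probe set in the table used here carried their symbol.

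The 12 lungs came from male Sprague-Dawley rats, 3 rats in each of 4 groups with 1 Affymetrix array per lung. The groups were banded rats with congestive heart failure (CHF) given ketotifen, CHF rats given placebo, sham-operated rats given ketotifen, and sham-operated rats given placebo. CHF was induced by a clip on the aorta above the coronary arteries in juvenile rats of 91 ± 9 g, and lungs were taken 9 weeks later. Ketotifen, which stabilizes mast cells, was given in the drinking water at 1 mg per kg per day, and the series text calls the CHF rats without it untreated where the sample labels say placebo. The study set CHF against sham lungs and asked what ketotifen did in each, so that all 4 groups carried an operation and the CHF groups of both arms differed from their sham groups by the clip.

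Endothelin-1 is made as a longer precursor in endothelial cells, cut to its active form by an endothelin converting enzyme, and constricts vessels through receptors on smooth muscle. Nitric oxide from the endothelial synthase and prostacyclin act the other way: they raise cyclic GMP and cyclic AMP in smooth muscle cells and relax the vessel, and phosphodiesterase 5 ends the cyclic GMP signal. The capillaries of the lung are also a main site of angiotensin converting enzyme, which sits on the endothelial surface and turns angiotensin I into the constrictor angiotensin II. Drugs in clinical use block endothelin receptors, inhibit phosphodiesterase 5 or mimic prostacyclin.

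Ace and Ece1, the 2 converting enzymes, were called lower in CHF than in sham lungs on average over both arms. Ace was also called within the ketotifen arm, each time on 1 of its 2 probe sets, and neither gene was called within the placebo arm. The 2 of 9 member probe sets called for the average were a share close to the 21.0% of all probe sets. The other 5 measured genes passed the test in none of the 6 comparisons. The comparisons were ketotifen against placebo in CHF lungs, CHF against sham in each arm, ketotifen against placebo in sham lungs, the surgery by drug interaction, and the effect of surgery averaged over both arms. Differences are given on the log2 scale with the standard error of limma's moderated fit, and calls are those with an adjusted p under 0.05 after Benjamini-Hochberg correction over the 16536 kept probe sets. Neighbouring comparisons share groups, so that a high or low group enters more than 1 of them.

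The promoters of the genes with a call, Ace and Ece1, and of the ligand gene Edn1, which had none in the main fit, are shown beside each other. Each window runs from 250 bases before to 50 bases after the gene's start, from RefSeq with the GRCr8 build. Capitals mark motifs searched on both strands, GGGCGG (a GC box), TATAAA (known as the TATA box), GATAA (bound by factors of the GATA family) and ACGTG (the core of a hypoxia response element), and TGANTCA (an AP-1 motif) with its variant TGACTAA; motifs that overlap run together.
Ace, chr10:91409879-91410178, plus strand: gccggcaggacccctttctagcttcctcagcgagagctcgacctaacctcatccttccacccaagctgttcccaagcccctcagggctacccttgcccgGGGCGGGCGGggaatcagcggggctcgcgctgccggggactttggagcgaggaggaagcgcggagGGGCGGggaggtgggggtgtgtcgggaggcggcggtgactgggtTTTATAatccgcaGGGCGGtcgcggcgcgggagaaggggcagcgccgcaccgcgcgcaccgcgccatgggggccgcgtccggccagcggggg
Ece1, chr5:155360781-155361080, plus strand: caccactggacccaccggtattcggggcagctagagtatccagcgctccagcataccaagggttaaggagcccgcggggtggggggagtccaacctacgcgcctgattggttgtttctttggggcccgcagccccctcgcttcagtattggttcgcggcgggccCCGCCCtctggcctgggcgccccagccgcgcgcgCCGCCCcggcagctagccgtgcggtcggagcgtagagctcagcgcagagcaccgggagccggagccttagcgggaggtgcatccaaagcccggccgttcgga
Edn1, chr17:22666638-22666937, minus strand: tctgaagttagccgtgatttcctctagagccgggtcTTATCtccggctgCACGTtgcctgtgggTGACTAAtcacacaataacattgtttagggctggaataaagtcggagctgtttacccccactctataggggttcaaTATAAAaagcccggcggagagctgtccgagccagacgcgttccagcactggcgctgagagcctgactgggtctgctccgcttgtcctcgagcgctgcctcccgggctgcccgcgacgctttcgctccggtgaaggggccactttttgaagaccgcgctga
The Ace window held GC boxes and a TATA box and the Ece1 window held GC boxes with no TATA box. The Edn1 window held a GATA motif, an ACGTG core, a TGACTAA and a TATA box, and no GC box. Across 33469 promoters of the same length, GGGCGG was found in 33.1%, TATAAA in 14.2%, GATAA in 26.5%, ACGTG in 19.3%, TGANTCA in 7.33% and TGACTAA in 2.34%. Of the 9 members with a promoter in the table, 6 held GGGCGG, 3 held TATAAA, 2 held GATAA and 1 held ACGTG. These matches describe the letters only, since no binding or methylation was measured.

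Ace, angiotensin converting enzyme, was read by 2 probe sets. On probe set 1370028_at it had log2 values of 9.18, 8.31 and 9.30 in CHF ketotifen lungs, 8.92, 10.02 and 10.09 in CHF placebo lungs, 10.31, 10.17 and 10 in sham ketotifen lungs, and 10.76, 9.90 and 10.32 in sham placebo lungs. All 3 CHF ketotifen lungs lay below all 6 sham lungs, whereas the CHF placebo group was split, with lung 1 among the CHF ketotifen values and lungs 2 and 3 among the sham values. On probe set 1387791_at the values were 10.66, 9.64 and 10.71 in CHF ketotifen lungs, 10.09, 11.37 and 11.55 in CHF placebo lungs, 11.83, 11.36 and 11.28 in sham ketotifen lungs, and 11.97, 11.14 and 11.60 in sham placebo lungs. The second probe set placed the lungs in the same way, with CHF placebo lung 1 and the CHF ketotifen lungs lowest.

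With ketotifen, Ace was 2.34-fold lower in CHF than in sham lungs on 1370028_at, a log2 difference of -1.23 ± 0.35 with a 95% interval from -1.99 to -0.46 (limma adjusted p = 0.0418). On 1387791_at the same difference was -1.16 ± 0.40 with an adjusted p of 0.0776 by limma, which did not pass. This Ace call was 1 of the 9 member probe sets in CHF ketotifen against sham ketotifen lungs, beside 13.0% of all probe sets called in either direction, so the share of members called was no higher than the background. The call on 1370028_at was lost by limma without sham ketotifen lung 1 (adjusted p = 0.104), lung 2 (0.0917) or lung 3 (0.0789), without CHF ketotifen lung 1 (0.0712), lung 2 (0.143) or lung 3 (0.0591), without sham placebo lung 3 (0.0622) and without CHF placebo lung 2 (0.0516). It was also lost with the replicate number as a block (0.0578).

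With placebo, Ace differed by -0.65 ± 0.35 between CHF and sham lungs on 1370028_at (limma adjusted p = 0.318) and by -0.57 ± 0.40 on 1387791_at (0.453), with groups that overlapped on each. Without CHF placebo lung 1 these differences were -0.28 (0.747) and -0.11 (0.925). Averaged over both arms, Ace was 1.92-fold lower in CHF lungs on 1370028_at (-0.94 ± 0.25, interval from -1.48 to -0.40, limma adjusted p = 0.0237). On 1387791_at the average was -0.86 ± 0.28, with a limma adjusted p of 0.052. The average on 1370028_at kept its call in 11 of the 12 fits that left out 1 lung, and lost it without sham placebo lung 3 (limma adjusted p = 0.0519). Between the drug arms, CHF ketotifen lungs differed from CHF placebo lungs by -0.74 ± 0.35 on 1370028_at (limma adjusted p = 0.303) and by -0.67 ± 0.40 on 1387791_at (0.421), so that a lower level with ketotifen was not shown.

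Ece1, endothelin converting enzyme 1, had log2 values of 9.10, 9.14 and 9.13 in CHF ketotifen lungs, 8.99, 9.85 and 10.10 in CHF placebo lungs, 10.06, 9.77 and 9.81 in sham ketotifen lungs, and 10.06, 10.07 and 10.08 in sham placebo lungs. The 3 CHF ketotifen lungs were nearly equal and all below the sham lungs, and CHF placebo lung 1 was the lowest of the 12. CHF placebo lung 2 lay within the range of the sham lungs and lung 3 just above it, so that the spread of that group (SD 0.58) was wide beside 0.02 in CHF ketotifen, 0.15 in sham ketotifen and 0.01 in sham placebo lungs.

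Averaged over both arms, Ece1 was 1.50-fold lower in CHF than in sham lungs (-0.59 ± 0.16, interval from -0.94 to -0.23, limma adjusted p = 0.0275). It and Ace 1370028_at were the 2 of 9 member probe sets called for the average effect of surgery, both lower, where 21.0% of all probe sets were called and 9.92% were called lower; the share of members called was close to that background. The Ece1 call held in 6 of the 12 fits that left out 1 lung. It was lost by limma without sham placebo lung 2 (adjusted p = 0.0523) or 3 (0.0602), sham ketotifen lung 1 (0.0575), or CHF ketotifen lung 1 (0.0556), 2 (0.0525) or 3 (0.0527).

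Within the arms, Ece1 differed by -0.75 ± 0.23 between CHF ketotifen and sham ketotifen lungs (limma adjusted p = 0.0523) and by -0.43 ± 0.23 between CHF placebo and sham placebo lungs (0.322). The placebo difference was -0.10 without CHF placebo lung 1 (0.793). CHF ketotifen lungs differed from CHF placebo lungs by -0.52 ± 0.23 (unadjusted p = 0.0434 and adjusted p = 0.275 by limma). That difference was -0.85 with a limma adjusted p of 0.00486 when CHF placebo lung 1, the lowest lung of all, was left out. The sham ketotifen and sham placebo groups did not overlap for Ece1 either, by -0.19 (limma adjusted p = 0.744), in a comparison where 16.4% of all probe sets did not overlap. In level, Ece1 ran from CHF ketotifen (mean 9.13) through CHF placebo (9.65) and sham ketotifen (9.88) to sham placebo (10.07). The first pair and the last pair in this order did not differ past the test, and the middle pair was not compared.

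**Figure D1:**
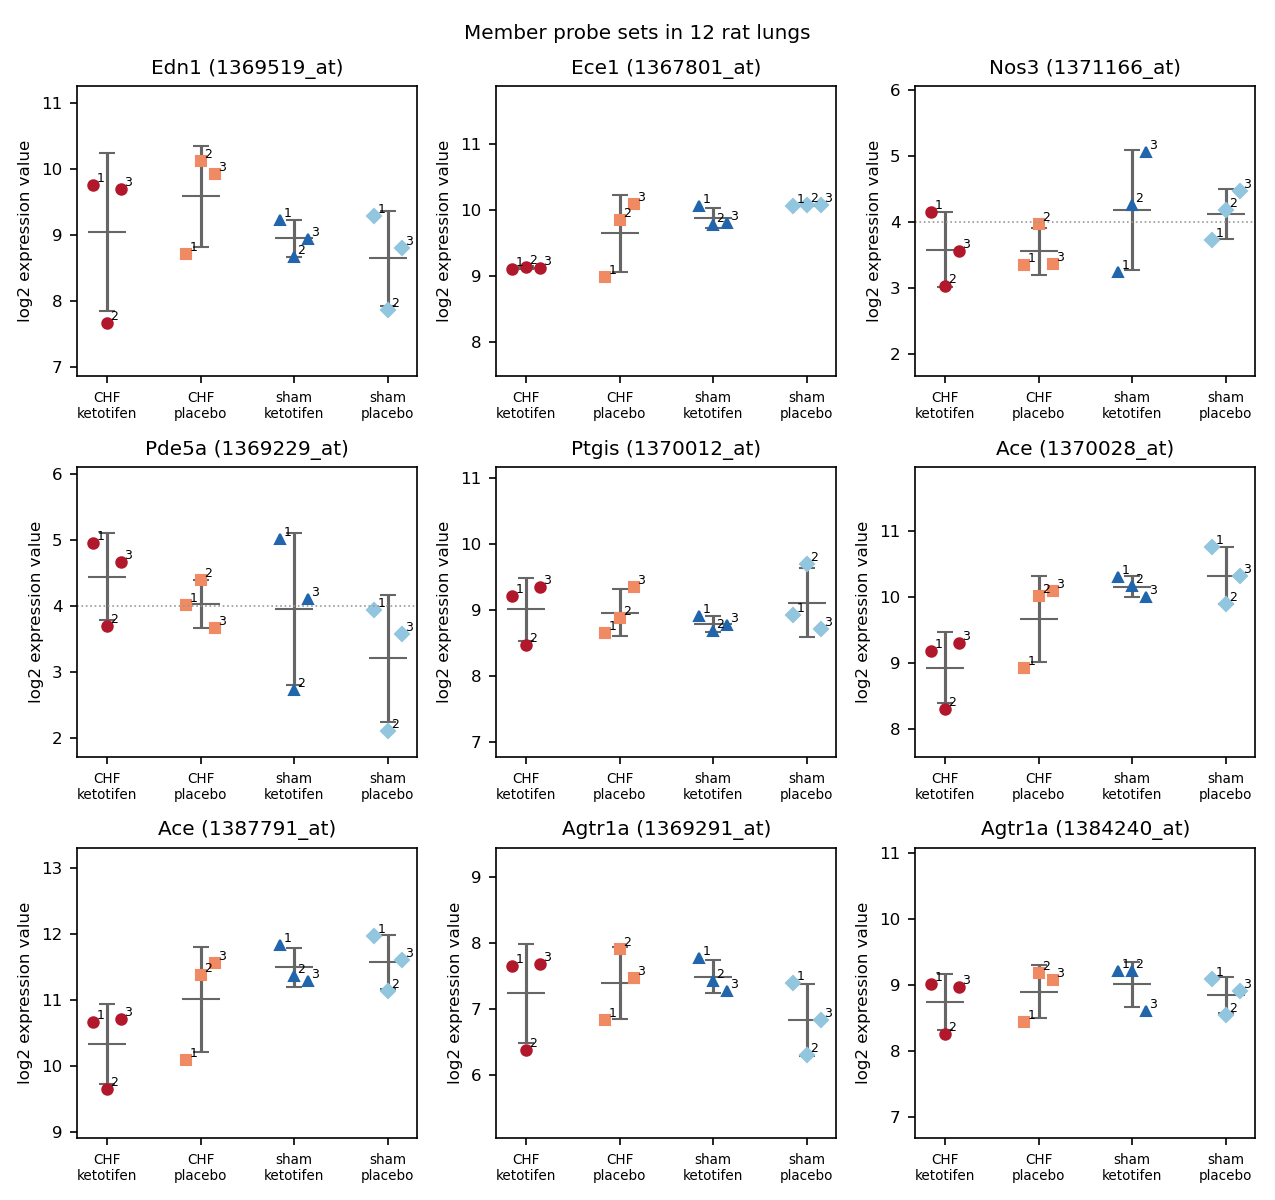
Log2 expression value (vertical axis) of each of the 9 member probe sets in each of the 12 lungs, 1 panel per probe set, with groups from left to right CHF ketotifen, CHF placebo, sham ketotifen and sham placebo; points are single lungs with their replicate numbers, horizontal lines are group means, error bars are SDs (n = 3) and the dotted line is the filter value of 4. The Ace panels and the Ece1 panel show the 3 CHF ketotifen lungs below all sham lungs and CHF placebo lung 1 with them, while the groups overlap for Edn1, Agtr1a, Ptgis, Nos3 and Pde5a.

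Edn1, the gene of endothelin-1, had log2 values of 9.75, 7.67 and 9.70 in CHF ketotifen lungs, 8.71, 10.12 and 9.92 in CHF placebo lungs, 9.23, 8.67 and 8.94 in sham ketotifen lungs, and 9.28, 7.86 and 8.80 in sham placebo lungs. In both CHF groups 2 lungs were above every sham lung and 1 was not, so that all groups overlapped. The difference of CHF placebo from sham placebo lungs was 0.94 ± 0.57, with an interval from -0.31 to 2.19 (limma adjusted p = 0.38). The average effect of surgery was 0.52 ± 0.40, with an interval from -0.37 to 1.40 (0.371).

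CHF ketotifen lungs differed from CHF placebo lungs in Edn1 by -0.54 ± 0.57 (limma adjusted p = 0.667) and from sham ketotifen lungs by 0.10 ± 0.57 (0.929). With 1 lung left out, these 2 differences ran from -0.98 (without CHF placebo lung 1) to 0.14 (without CHF ketotifen lung 2) and from -0.26 to 0.78 (without CHF ketotifen lung 2), so that neither direction was settled. With weights for the arrays estimated gene by gene, an alternative chosen after seeing the data, Edn1 rose by 1.18 in CHF placebo against sham placebo lungs (limma adjusted p = 0.037) and by 0.91 on average over both arms (0.0201). It was also called on average when CHF ketotifen lung 2 and CHF placebo lung 1 were left out together (1.08, 0.0339). With equal weights, Edn1 was called in none of the 12 fits that left out 1 lung for CHF placebo against sham placebo, where its difference lay between 0.55 and 1.37.

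Agtr1a, the receptor through which angiotensin II constricts vessels, was read by 2 probe sets and was called on neither. On the brighter, 1384240_at, values were 9.01, 8.25 and 8.96 in CHF ketotifen lungs, 8.43, 9.18 and 9.07 in CHF placebo lungs, 9.21, 9.21 and 8.61 in sham ketotifen lungs, and 9.09, 8.55 and 8.90 in sham placebo lungs. The 4 group means lay between 8.74 and 9.01, and the average effect of surgery was -0.11 ± 0.19 (limma adjusted p = 0.705). On 1369291_at the means were 7.23 ± 0.75 in CHF ketotifen, 7.39 ± 0.55 in CHF placebo, 7.48 ± 0.26 in sham ketotifen and 6.83 ± 0.54 in sham placebo lungs (SD, n = 3 each). The rat carries a close copy of this gene, Agtr1b, and whether these probe sets also read it was not examined. The 2 probe sets differed in sign for the average effect of surgery, which was 0.16 ± 0.28 on 1369291_at (0.715 by limma).

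Ptgis, prostacyclin synthase, had log2 values of 9.22, 8.47 and 9.36 in CHF ketotifen lungs, 8.66, 8.88 and 9.36 in CHF placebo lungs, 8.92, 8.69 and 8.78 in sham ketotifen lungs, and 8.93, 9.71 and 8.72 in sham placebo lungs. The groups overlapped in every pair. Its average effect of surgery was 0.03 ± 0.21 with an interval from -0.42 to 0.49 (limma adjusted p = 0.922), which leaves room for a change of up to about that size in either direction.

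Nos3, the endothelial nitric oxide synthase, and Pde5a, phosphodiesterase 5, lay near the lower end of the array's range. Nos3 had log2 values of 4.15, 3.02 and 3.55 in CHF ketotifen lungs, 3.34, 3.96 and 3.36 in CHF placebo lungs, 3.23, 4.26 and 5.05 in sham ketotifen lungs, and 3.72, 4.18 and 4.46 in sham placebo lungs. It reached 4 in 5 of the 12 lungs, and its average effect of surgery was -0.59 ± 0.31 (limma adjusted p = 0.188). Pde5a had 4.95, 3.69 and 4.67 in CHF ketotifen lungs, 4.02, 4.39 and 3.66 in CHF placebo lungs, 5.02, 2.73 and 4.10 in sham ketotifen lungs, and 3.94, 2.11 and 3.57 in sham placebo lungs. It reached 4 in 6 of the 12 lungs, with an average effect of surgery of 0.65 ± 0.43 (limma adjusted p = 0.284). At such values the array says little about either gene, and the missing calls do not show that they were unchanged.

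**Figure D2:**
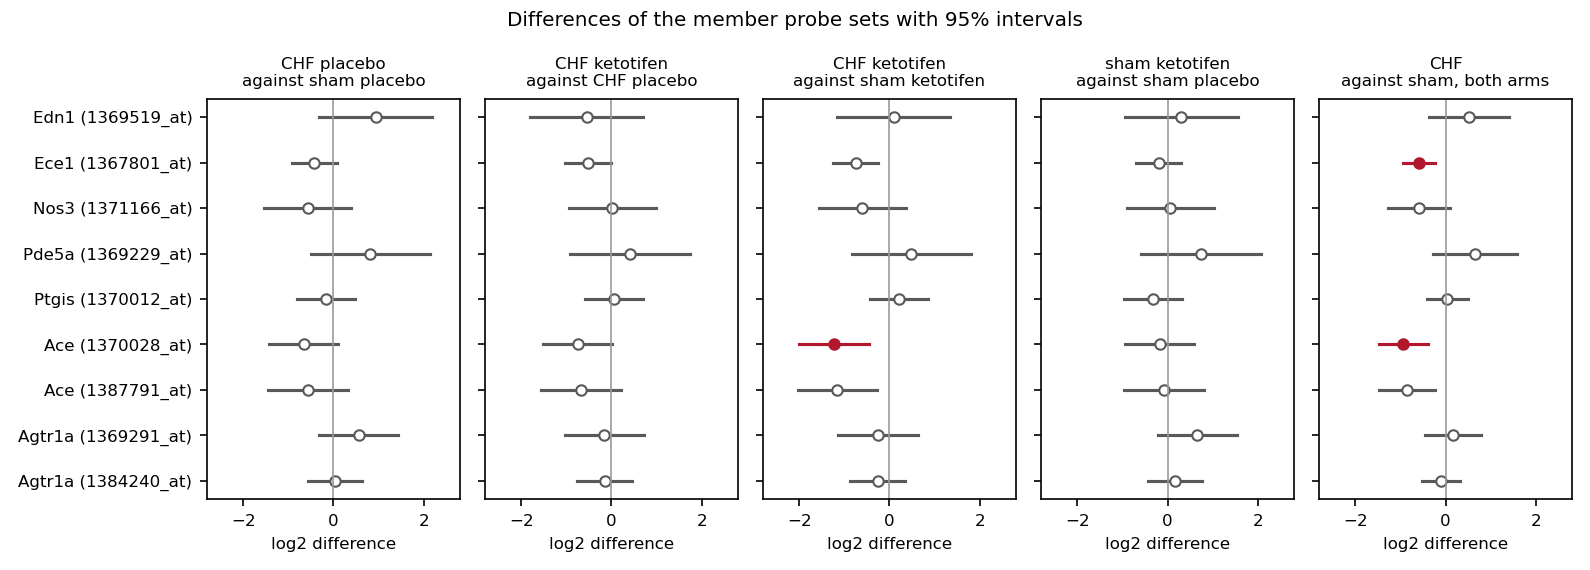
Log2 difference (horizontal axis) of the 9 member probe sets (vertical axis) in 5 comparisons, 1 panel each, with bars for the 95% interval of the limma fit and filled points for an adjusted p under 0.05. Filled points are Ace 1370028_at in CHF ketotifen against sham ketotifen, at -1.23, and Ace 1370028_at and Ece1 for the average over both arms, at -0.94 and -0.59.

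In CHF placebo against sham placebo lungs, limma called 0 of the 9 member probe sets, with 0 at an unadjusted p under 0.05, where 0.169% of all probe sets were called. The groups overlapped for all 9, beside 23.4% of all probe sets that did not overlap. In CHF ketotifen against CHF placebo lungs limma called 0 of 9, where 1.22% of all were called. Again all 9 overlapped, beside 25.4% that did not. At an unadjusted p under 0.05 there was 1 of the 9, Ece1. Its limma p of 0.0434 ranked 2604 among the 16536 kept probe sets, so that such p-values were common in this comparison. In sham ketotifen against sham placebo lungs limma called 0 of 9, with 0 at an unadjusted p under 0.05, where 0.0847% of all were called.

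For the interaction, which asks whether surgery acted differently with ketotifen than with placebo, limma called 0 of 9 members, with 0 at an unadjusted p under 0.05, where 0.369% of all were called. The interaction was -0.58 on 1370028_at and -0.59 on 1387791_at for Ace and -0.33 for Ece1, with limma adjusted p of 0.698, 0.737 and 0.743. A call for Ace with ketotifen and none with placebo is thus not shown to be a difference between the arms. In CHF ketotifen against sham ketotifen lungs, 3 of the 9 member probe sets did not overlap, all lower in CHF (both of Ace, and Ece1), beside 20.8% of all probe sets that were lower without overlap. The median difference of the 9 was -0.27 there, against -0.03 for all probe sets tested, and -0.11 against -0.02 for the average effect of surgery.

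Single lungs were low across most members at once. CHF ketotifen lung 2 was the lowest of its group in 8 of the 9 member probe sets, CHF placebo lung 1 in 8 and sham placebo lung 2 in 6, whereas sham ketotifen lungs 2 and 3 were each lowest in 4. Over all kept probe sets, CHF placebo lung 1 was close to CHF ketotifen lungs 1, 2 and 3 (SD of the log2 difference 0.49, 0.577 and 0.491). From CHF placebo lungs 2 and 3 it was at 0.553 and 0.694. Its likeness to CHF ketotifen lungs in single genes is thus not particular to these pathways. When CHF ketotifen lung 2 and CHF placebo lung 1 were left out together, an alternative chosen after seeing the data, Ece1 differed by -0.76 in CHF ketotifen against sham ketotifen lungs (limma adjusted p = 0.00776) and by -0.43 on average (0.0244). Ace 1370028_at then differed by -0.92 between CHF ketotifen and sham ketotifen lungs (0.0343) and by -0.60 on average (0.0506). The same fit called Ece1 lower in CHF ketotifen against CHF placebo lungs (-0.86, limma adjusted p = 0.0125) and Edn1 higher in CHF lungs on average (1.08, 0.0339).

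Genes of alveolar type 2 cells averaged between 12.80 and 13.79 in the 12 lungs, among the brightest lists. Cardiomyocyte and ciliated cell genes ranged more widely between lungs. A list of 6 cardiomyocyte genes averaged 6.65 and 10.16 in sham ketotifen lungs 1 and 2 and 8.44 in sham placebo lung 3, and between 2.56 and 2.90 in the other 9 lungs. Without those 3 lungs, sham ketotifen lung 3 was alone in its group. In that fit of 9 lungs Ace 1370028_at differed by -0.86 and Ece1 by -0.55 on average, and whether calls held could not be judged. Ciliated cell genes averaged 9.82 and 8.60 in sham placebo lungs 2 and 3 and 5.43 to 7.01 in the others. Without sham placebo lungs 2 and 3, which left sham placebo lung 1 alone in its group, the averages were -1.16 for Ace 1370028_at and -0.58 for Ece1. The difference between 3' and 5' beta-actin probe sets, a sign of RNA length, was 4.52 in sham ketotifen lung 2 and 4.23 and 3.90 in sham placebo lungs 2 and 3, and between 2.90 and 3.45 in the rest.

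Endothelial markers moved with Ace and Ece1. The mean log2 value of 14 endothelial genes was 10.72, 10.06 and 10.74 in CHF ketotifen lungs, 10.54, 11.28 and 11.27 in CHF placebo lungs, 11.53, 11.51 and 11.32 in sham ketotifen lungs, and 11.39, 11.14 and 11.33 in sham placebo lungs. As for both enzymes, the 3 CHF ketotifen lungs and CHF placebo lung 1 were below all others. With ketotifen, 9 of the 14 fell in CHF lungs, 1 rose and 4 did not pass, with a median difference of -1.11. On average over both arms, 7 fell, 1 rose and 6 did not pass, with a median of -0.67. Other marker lists also ran with these genes over the 12 lungs. Pearson's r of Ece1 was 0.85 with the endothelial mean, -0.862 with the macrophage mean and 0.675 with the club cell mean. For Ace these were 0.96, -0.719 and 0.605 on 1370028_at and 0.956, -0.664 and 0.546 on 1387791_at. The part of these markers in the lower Ace and Ece1 was not tested, and in whole lung RNA fewer cells of a type and less RNA per cell cannot be told apart.

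Among the endothelial genes with ketotifen, the angiopoietin receptor Tek fell by 1.44 ± 0.35 in CHF lungs (limma adjusted p = 0.0254), the VEGF receptor Kdr by 1.75 (0.00738) and von Willebrand factor, Vwf, by 1.55 (0.0225). The junction gene Pecam1 differed by -0.15 (0.611) and did not pass, and endomucin, Emcn, rose by 1.10 (0.00485). The count of 9 that fell was 5 without the filter on low values and 5 with CHF ketotifen lungs 1 and 3 averaged. It was 4 or 5 without sham ketotifen lung 1 or 2, or CHF ketotifen lung 1 or 2. Fits without the 3 lungs of high cardiomyocyte signal, or without sham placebo lungs 2 and 3, left a group of 1 lung. Whether these counts held could not be judged there.

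**Figure D3:**
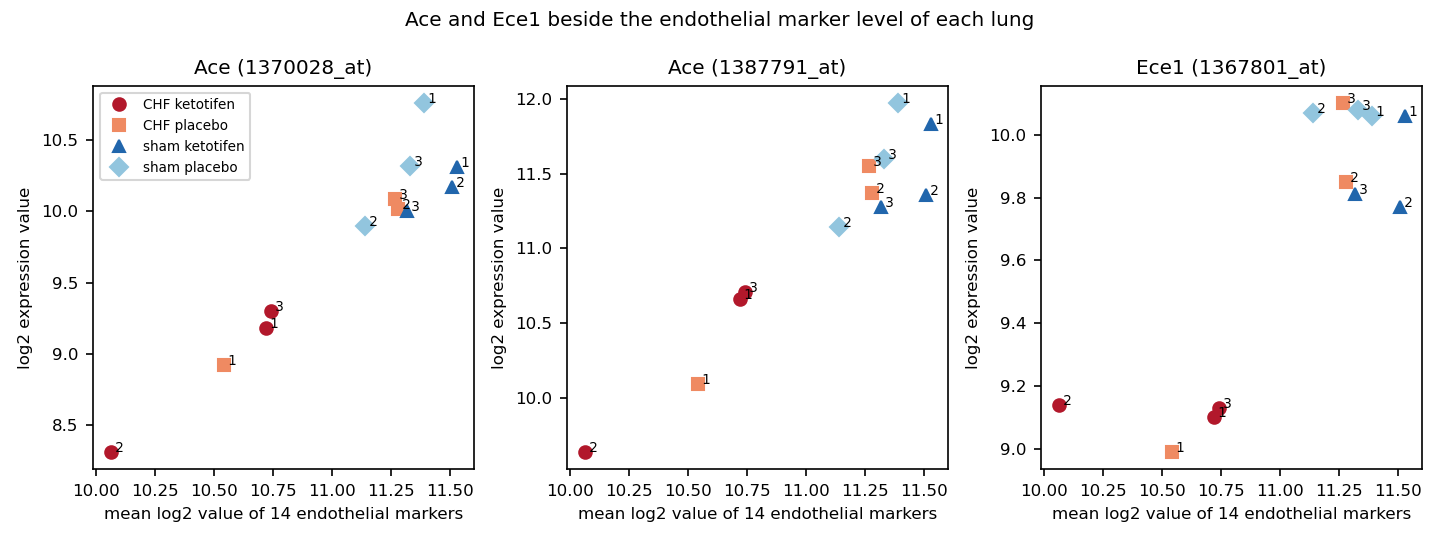
Log2 value of both Ace probe sets and of Ece1 (vertical axes, 1 panel each) against the mean log2 value of the 14 endothelial marker genes (horizontal axis), 1 point per lung, coloured by group. The CHF ketotifen lungs and CHF placebo lung 1, with endothelial means of 10.06 to 10.74, lie at the lower left in the 3 panels.

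The genes whose pattern over the 12 lungs was most like each member's were sought by Pearson's r among 9739 genes, group differences included, and are given as a description. Ece1 ran closest with Tek (r = 0.982), then Col6a5 (0.973) and Nfe2l1 (0.962). Tek had 10.43, 10.53 and 10.50 in CHF ketotifen lungs, 10.28, 11.63 and 12.02 in CHF placebo lungs, 12.17, 11.94 and 11.67 in sham ketotifen lungs, and 12.27, 11.91 and 12.30 in sham placebo lungs, so that CHF placebo lung 1 was again lowest. Ace ran closest with the junction gene Jam2 (0.975), the potassium channel gene Kcnd3 (0.965) and Sec14l1 (0.965), on its brighter probe set. Jam2 fell by 1.53 in CHF ketotifen against sham ketotifen lungs (limma adjusted p = 0.0331).

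The genes nearest to the remaining members had lower coefficients in part. They were Pstpip2 (0.932), C1qtnf1 (0.888) and Wac (0.876) for Edn1, and Ly6e (0.906), Gpx3 (0.878) and Uvrag (0.877) for Agtr1a. For Ptgis they were Aida (0.859), Gcfc2 (0.83) and Zfp202 (0.773). Nos3 had Mrfap1 (0.934), Ranbp2 (0.93) and Rif1 (0.879), and Pde5a had Dennd1b (0.946), Gpatch2 (0.928) and Vsig10l (0.918), over values near the floor of the array.

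Of 69 other genes of the 4 pathways, 59 had a probe set with their symbol and 36 passed the filter, counted by the brightest probe set of each. In CHF ketotifen against sham ketotifen lungs 7 of the 36 rose and 3 fell, beside 6.36% of all probe sets higher and 6.61% lower. For the average effect of surgery 9 rose and 3 fell, beside 11.0% higher and 9.92% lower. In CHF placebo against sham placebo lungs limma called 0 of 36, with 6 at an unadjusted p under 0.05, and in sham ketotifen against sham placebo lungs 0, with 4. Unadjusted p-values of this size were common among the 16536 kept probe sets. A limma p of 0.0338 ranked 2585 in the first comparison, and one of 0.0484 ranked 2262 in the second. The counts of 6 and 4 are thus not shown to exceed the background. In CHF ketotifen against CHF placebo lungs 1 rose, Ptgs2, beside 0.822% of all probe sets higher. The dimmer probe set of Slc7a1, outside this count, was also called higher there (1.36 ± 0.26, limma adjusted p = 0.032), and the brighter, at 1.02 ± 0.24, did not pass (0.0705). Without the 3 lungs of high cardiomyocyte signal, sham ketotifen lung 3 was alone in its group, so that whether calls held could not be judged. Many differences stayed near their size in that fit of 9 lungs. Arg1 then differed by 2.70 on average. Between CHF ketotifen and sham ketotifen lungs Hpgd differed by -3.23, Ptgs2 by 3.35 and Tbxas1 by 1.92, whereas Ptgs1 differed by 0.39. The 2 measured endothelin genes, the endothelin-degrading enzyme Mme (-0.20 ± 0.18 on average) and Ece2 (0.01 ± 0.13), were called in no comparison.

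In the nitric oxide and cyclic GMP list, 18 of 36 genes were measured above the filter. With ketotifen 3 rose in CHF lungs, and on average over both arms 5 rose, with none lower, while the median difference of the 18 was -0.04 with ketotifen and -0.03 on average, against -0.03 and -0.02 for all probe sets. Arg1, arginase 1, which uses the arginine that nitric oxide is made from, had 9.34, 10.36 and 8.71 in CHF ketotifen lungs, 9.13, 7.66 and 8.33 in CHF placebo lungs, 5.97, 6.76 and 7.00 in sham ketotifen lungs, and 6.57, 4.34 and 6.20 in sham placebo lungs. All 6 CHF lungs were above all 6 sham lungs, and the average difference was 2.78 ± 0.43, or 6.89-fold (limma adjusted p = 0.00441). In CHF placebo against sham placebo lungs alone it was 2.67 ± 0.61 (0.0968).

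Gch1, which makes the first step toward the cofactor tetrahydrobiopterin, had 7.84, 8.62 and 7.89 in CHF ketotifen lungs, 7.46, 5.89 and 5.35 in CHF placebo lungs, 5.83, 5.77 and 6.01 in sham ketotifen lungs, and 5.78, 5.07 and 5.40 in sham placebo lungs. CHF placebo lung 1 was again nearest to the CHF ketotifen lungs, as it was over all kept probe sets. Gch1 was higher by 2.24 ± 0.45 in CHF ketotifen than in sham ketotifen lungs (limma adjusted p = 0.0133). Slc7a1, an arginine transporter, rose by 1.57 ± 0.24 in CHF lungs of the ketotifen arm (0.00474) and by 0.89 on average (0.00837). On average Pde3b, a phosphodiesterase, rose by 0.81 ± 0.18 (0.0149) and Ass1, which remakes arginine from citrulline, by 0.50 ± 0.14 (0.0324). Ass1 kept its call in 4 of the 12 fits that left out 1 lung, and Slc7a1 in all 12 in both comparisons.

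Macrophage markers moved with Arg1. The mean log2 value of 9 macrophage genes was between 9.90 and 10.09 in CHF ketotifen lungs, 8.70 and 9.82 in CHF placebo lungs, 8.10 and 8.39 in sham ketotifen lungs, and 6.79 and 8.42 in sham placebo lungs. With ketotifen 7 of the 9 rose in CHF lungs and none fell, and 8 of 9 rose on average. Their part in the Arg1, Gch1 and Tbxas1 differences was not tested. For CHF ketotifen against sham ketotifen, Arg1 lost its call without sham ketotifen lung 1 (limma adjusted p = 0.0531) or CHF ketotifen lung 2 (0.0594). Tbxas1 lost it without the same lungs (0.0509 and 0.0593), and Gch1 without CHF ketotifen lung 2 (0.0519).

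In the prostacyclin and thromboxane list, 10 of 12 genes passed the filter. With ketotifen 3 rose and 2 fell in CHF against sham lungs, with a median difference of 0.22, and on average 2 rose and 2 fell. Ptgs2, the inducible cyclooxygenase that feeds prostacyclin and thromboxane synthesis, had 9.76, 9.27 and 10.21 in CHF ketotifen lungs, 4.45, 5.92 and 6.42 in CHF placebo lungs, 5.54, 5.75 and 6.39 in sham ketotifen lungs, and 6.05, 5.38 and 6.08 in sham placebo lungs. The CHF ketotifen lungs stood apart from the other 9, which overlapped. Ptgs2 rose by 4.15 ± 0.46 in CHF ketotifen against CHF placebo lungs, or 17.8-fold (limma adjusted p = 0.00127), and by 3.85 against sham ketotifen lungs (0.00131). Both calls held in all 12 fits that left out 1 lung. The surgery by drug interaction was called for Ptgs2 and for none of the other 9 genes of the list, beside 0.254% of all probe sets called higher. Neutrophil and macrophage markers were by median also higher in CHF ketotifen than in CHF placebo lungs. The macrophage mean was 9.82, 8.70 and 8.73 in CHF placebo lungs and 9.90 to 10.09 in CHF ketotifen lungs. In CHF placebo against sham placebo lungs all 9 macrophage genes had positive differences, with a median of 1.34. None was called, and 8 had an unadjusted p under 0.05 by limma. The mean of 4 neutrophil genes was 8.60, 7.17 and 8.49 in CHF ketotifen lungs, 5.20, 6.32 and 7.38 in CHF placebo lungs, 7.14, 7.44 and 6.57 in sham ketotifen lungs, and 6.32, 5.17 and 6.46 in sham placebo lungs. Of the 4, Il1r2 rose in CHF ketotifen against CHF placebo lungs (2.62 ± 0.26, limma adjusted p = 0.000517) and was called for the interaction (2.49 ± 0.37, 0.0199). The other 3 were called in neither, and the interactions of the 4 ran from -1.17 to 2.49, positive for 3. In CHF ketotifen against CHF placebo lungs the median difference was 2.19 for the 4 neutrophil genes. It was 1.03 for the 9 macrophage genes, of which limma called 0, with 4 at an unadjusted p under 0.05. The part of these markers in the Ptgs2 difference was not tested.

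Hpgd, which breaks prostaglandins down, had 6.88, 6.62 and 7.12 in CHF ketotifen lungs, 7.62, 8.85 and 9.78 in CHF placebo lungs, 9.82, 10.75 and 10.10 in sham ketotifen lungs, and 9.99, 9.07 and 9.67 in sham placebo lungs. It fell by 3.35 ± 0.46 in CHF ketotifen against sham ketotifen lungs (limma adjusted p = 0.00278) and by 2.09 ± 0.33 on average (0.00458). Its second probe set fell by 3.20 in CHF lungs of the ketotifen arm (0.00649). Slco2a1, a prostaglandin transporter of endothelial cells, fell by 1.27 ± 0.36 in CHF lungs of the ketotifen arm (0.0414) and by 0.96 ± 0.25 on average (0.0247). Its call in that arm held in 5 of the 12 fits that left out 1 lung, and its second probe set, at -1.49, did not pass (0.153).

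Tbxas1, thromboxane synthase, had 7.87, 8.36 and 7.77 in CHF ketotifen lungs, 8.21, 6.88 and 6.46 in CHF placebo lungs, 5.81, 6.24 and 6.08 in sham ketotifen lungs, and 6.21, 5.12 and 5.49 in sham placebo lungs. Every CHF lung was above every sham lung, and the average difference was 1.77 ± 0.29 (limma adjusted p = 0.00566), in contrast to prostacyclin synthase at 0.03 ± 0.21. The difference between these 2 genes was not tested. Ptgs1, the constitutive cyclooxygenase, was higher by 0.80 ± 0.19 in CHF ketotifen than in sham ketotifen lungs (limma adjusted p = 0.0224). It kept that call in 8 of the 12 fits that left out 1 lung. Ketotifen against placebo was called for Ptgs1 neither in CHF lungs (0.26, limma adjusted p = 0.515) nor in sham lungs (-0.55, 0.28).

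In the renin angiotensin list, 6 of 15 genes passed the filter. Within the ketotifen arm 1 was called higher and 1 lower in CHF lungs, and on average 2 higher and 1 lower. Prcp, which inactivates angiotensin II, had 7.82, 7.90 and 7.82 in CHF ketotifen lungs, 7.91, 6.62 and 7.01 in CHF placebo lungs, 6.47, 6.23 and 6.54 in sham ketotifen lungs, and 6.49, 5.88 and 6.33 in sham placebo lungs. The CHF lungs lay above the sham lungs without overlap, CHF placebo lung 1 with the CHF ketotifen lungs. Prcp rose by 1.43 ± 0.29 in CHF lungs of the ketotifen arm (limma adjusted p = 0.0132) and by 1.19 ± 0.20 on average (0.00617). Nr3c2, the mineralocorticoid receptor, fell by 1.42 ± 0.25 in CHF lungs of the ketotifen arm (0.00798) and by 0.87 ± 0.18 on average (0.00996). The prorenin receptor Atp6ap2 rose by 0.47 ± 0.14 on average (0.0377), a call that held in 5 of the 12 fits that left out 1 lung. Prcp and Nr3c2 kept their calls in all 12.

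**Figure D4:**
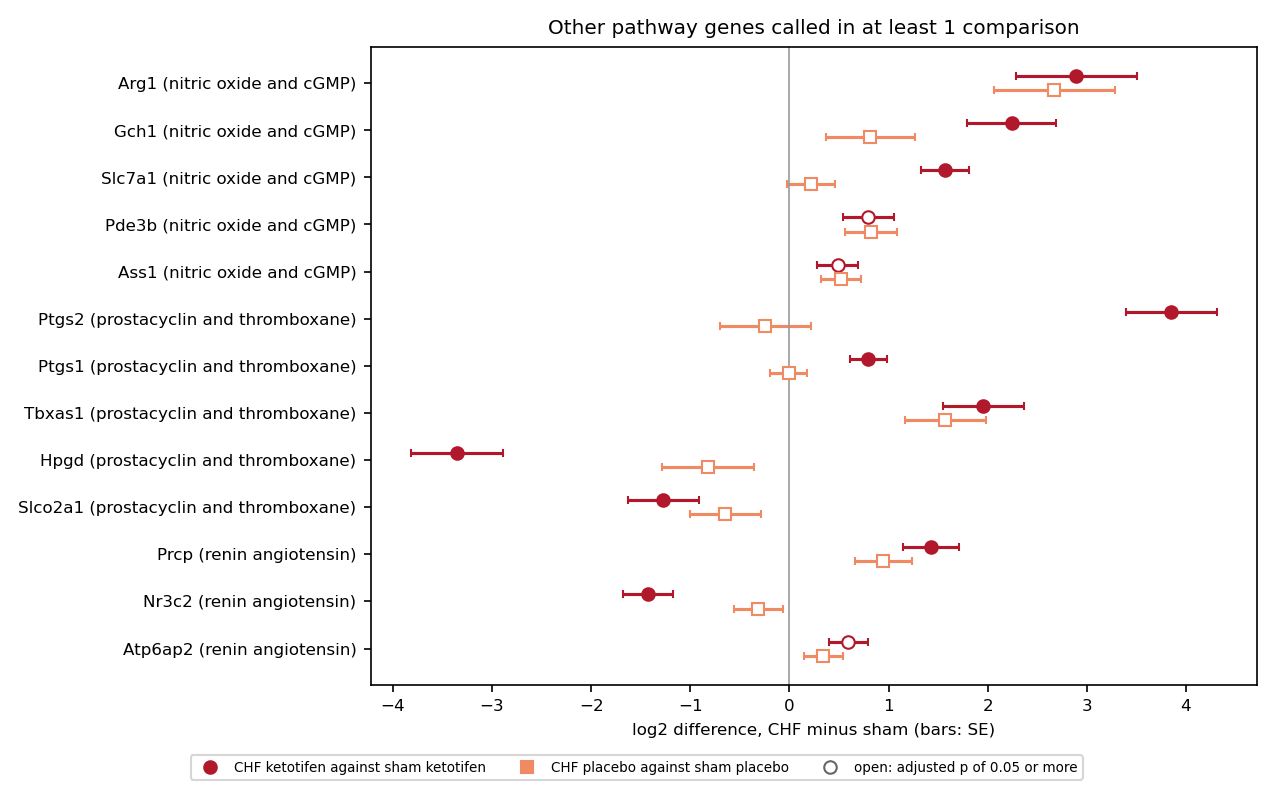
Log2 difference of CHF minus sham lungs (horizontal axis, bars are standard errors) for the pathway genes other than the members that were called in at least 1 comparison (vertical axis), with circles for the ketotifen arm, squares for the placebo arm, and filled symbols for an adjusted p under 0.05. Every square is open, while the circles run from -3.35 for Hpgd to 3.85 for Ptgs2.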

How the data were processed

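Whole lung RNA of 12 rats was hybridized to Affymetrix rat genome arrays. The deposited values are log2 expression per probe set, which the authors computed, per the submitters' processing notes, by GCRMA under R 2.5.0; its settings are not given in the sources at hand. GCRMA values flatten near background, so that differences of dim genes are uncertain. The array medians lay between 4.13 and 4.31, and the number of arrays, not a count of reads, limits the precision.

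The 57 control probe sets were left out, and probe sets with a log2 value of at least 4 in at least 3 of 12 arrays were kept. Names came from the platform annotation (20826 probe sets with 1 symbol, 436 with several, 9780 with none). One limma fit of all 12 arrays (limma 3.58.1, R 4.3.3, eBayes with intensity trend, two-sided) gave each difference, and its adjusted p-values are by Benjamini-Hochberg. Groups came from the sample labels, whose titles read Sham, CHF, Sham+Keto and CHF+Keto. Separate rats are named by the labels, but litter and processing day are not, so that p-values measure the spread between these lungs.

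Members, gene lists, markers and tests were chosen with earlier results of these data known. The text names every member probe set, list genes called in at least 1 comparison, the list gene of smallest p, and the 3 nearest genes of each member; lists were counted by the probe set of highest mean. Endothelial genes and the neutrophil gene Il1r2, named beyond that rule, and lungs left out together, were chosen after seeing values. Replicate numbers were tested for pairing: of 18 pairs of same-numbered lungs across groups, 5 had a correlation of deviations over 0.1 (range -0.347 to 0.263). The numbers were not used to pair lungs, though such a check cannot exclude a litter or processing day shared by number. CHF ketotifen arrays 1 and 3 were the closest pair (SD of their difference 0.258 on the log2 scale, against 0.397 for the next pair) and were counted as separate lungs. Alternatives were other filters, no trend, array weights, a replicate block, repeated quantile normalization, fits of single comparisons, averaged arrays, and lungs left out. The fit was tested on simulated data.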

Additional observations from a re-analysis of the deposited data

Results flagged for a closer look

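The interaction tests whether the effect of surgery differed between the drug arms, and the neutrophil marker Il1r2 was called for it, as given above. Among the members and the other pathway genes counted, only Ptgs2 was called. The interaction of surgery and drug was 4.09 ± 0.65 on the log2 scale (limma adjusted p = 0.0258): Ptgs2 was 3.85 higher in CHF ketotifen than in sham ketotifen lungs, and CHF placebo differed from sham placebo lungs by -0.24. The call held in 6 of the 12 fits that left out 1 lung, with adjusted p from 0.00615 to 0.0955, and was lost without sham placebo lung 3, CHF placebo lung 2, sham ketotifen lung 1 or 2, or CHF ketotifen lung 1 or 3, with differences of 3.86 to 4.26 in those fits. It was also lost without the filter on low values (4.09, 0.0671) and with CHF ketotifen arrays 1 and 3 averaged (3.97, 0.078). The interaction was 4.31 without sham placebo lungs 2 and 3 and 3.47 without the 3 lungs of high cardiomyocyte signal. Each of these 2 fits left a group of 1 lung, so that whether the call held could not be judged. Groups of 3 lungs are too small for a check of single outlying lungs.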

How the results depend on the processing

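Over 23 alternatives, the 54 differences of the member probe sets were recomputed 1212 times: 1165 stayed on their side of the threshold, 27 lost a call, 20 gained one, and 0 of the calls turned sign. Fits without sham placebo 2 and 3, or without the 3 lungs of high cardiomyocyte signal, left a group of 1 lung. They are among these alternatives, but their counts are not listed below. The number of member probe sets called in CHF ketotifen against sham ketotifen lungs, 1 as reported, was 0 without the filter and 0 with the replicate block (Ace adjusted p = 0.0578 by limma). With CHF ketotifen arrays 1 and 3 averaged that number was also 0. It was 2 with the stricter filter of log2 6, 2 in a fit of the compared groups only, 2 without CHF ketotifen 2 and CHF placebo 1, and 3 with gene-by-gene array weights, and lay between 0 and 3 when each lung was left out. For the average effect of surgery, 2 as reported, it was 0 without the filter, 1 with the averaged arrays and 4 with array weights, and between 0 and 3 with 1 lung left out. For CHF ketotifen against CHF placebo, 0 as reported, it was 2 with array weights, 1 without CHF ketotifen 2 and CHF placebo 1, and 0 to 1 with 1 lung left out. For CHF placebo against sham placebo, 0 as reported, it was 2 with array weights and 0 without any 1 lung. The interaction and sham ketotifen against sham placebo gave 0 in all. Of 36 sample and group pairs, 16 correlated best with their own replicate number, and the block changed no other count of member calls. The cause of these changes was not tested beyond the fewer lungs or other probe sets in each fit. Array weights by REML did not converge and are not given. With 3 lungs a group, intervals of members were wide, and Nos3 and Pde5a lay near the array's floor, where a change could go unseen.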
